A study of Mus musculus with 11 samples.

Results

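A set of 10 genes that mark adipocytes were followed in whole neonatal skin, 10 of the 49315 genes in the count table. They were chosen by name, as the hormones and secreted proteins of fat cells (Adipoq, Lep, Retn and Cfd), the proteins of the lipid droplet and its turnover (Fabp4, Plin1, Cidec, Lipe and Pck1) and the nuclear receptor Pparg. All mice carried the Foxp3-DTR transgene, in which the diphtheria toxin (DT) receptor is driven by the Foxp3 promoter, so that DT removes regulatory T cells (Tregs) and the controls carried the receptor too. Control mice received PBS (n = 2). The ΔETreg group (n = 3, labelled EarlyDT) received DT at 30 ng per g of body weight on postnatal days 6 and 8 and was harvested on day 9. The ΔLTreg group (n = 3, labelled LateDT) received it on days 10 and 12, and the ΔTreg group (n = 3, labelled FullDT) on days 6, 8, 10 and 12, both with harvest on day 13. The labels do not give the age of the controls at harvest. Depletion and age therefore cannot be told apart where a depleted group is compared with control. ΔETreg skin was younger than that of the other 2 depleted groups. Regimen and age cannot be told apart where ΔETreg mice are compared with them. Each library came from a skin biopsy of 4 mm from 1 mouse on a C57BL/6J background, sex was not recorded, and every library had the same batch label.

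White adipocytes of the skin lie beneath the dermis, around the growing hair follicles, and fill with triglyceride in the first weeks after birth. PPARγ, encoded by Pparg, is the transcription factor that drives their differentiation and works as a partner of RXR and together with C/EBP factors. Mature adipocytes then make adipokines, take up and bind fatty acids with Fabp4, and store lipid in a droplet coated by perilipin (Plin1) and enlarged by Cidec, from which hormone-sensitive lipase (Lipe) releases fatty acids. Pck1 provides the glycerol backbone needed to turn fatty acids back into triglyceride. Fabp4 is also made by endothelial cells and macrophages, and Pparg and Lipe also by the cells of the sebaceous gland, which shares much of this lipid chemistry.

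The promoters of the adipokine genes Adipoq and Lep and of the droplet gene Plin1 are shown as examples with and without a C/EBP core, Adipoq also as the gene called below. They were picked after the matches were seen, and other genes with the same difference between groups, such as Retn and Pck1, held no core. Each window holds 250 bases before and 50 bases after the transcription start (RefSeq, GRCm38.p6, written 5′ to 3′ along the gene). Capitals mark the letters TTNNGCAA on either strand, the core of a C/EBP recognition sequence.
Adipoq, chr16:23146286-23146585, forward strand: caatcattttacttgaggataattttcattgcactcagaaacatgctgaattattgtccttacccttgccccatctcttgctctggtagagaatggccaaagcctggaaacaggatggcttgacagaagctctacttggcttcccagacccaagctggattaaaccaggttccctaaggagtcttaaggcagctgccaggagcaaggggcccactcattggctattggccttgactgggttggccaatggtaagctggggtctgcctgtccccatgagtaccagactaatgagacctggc
Lep, chr6:29059971-29060270, forward strand: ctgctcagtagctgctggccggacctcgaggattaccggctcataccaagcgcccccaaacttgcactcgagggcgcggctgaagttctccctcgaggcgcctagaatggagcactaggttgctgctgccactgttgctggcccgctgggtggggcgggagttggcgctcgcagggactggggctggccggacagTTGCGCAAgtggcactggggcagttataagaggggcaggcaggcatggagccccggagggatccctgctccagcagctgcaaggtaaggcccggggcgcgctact
Plin1, chr7:79732727-79733026, reverse strand: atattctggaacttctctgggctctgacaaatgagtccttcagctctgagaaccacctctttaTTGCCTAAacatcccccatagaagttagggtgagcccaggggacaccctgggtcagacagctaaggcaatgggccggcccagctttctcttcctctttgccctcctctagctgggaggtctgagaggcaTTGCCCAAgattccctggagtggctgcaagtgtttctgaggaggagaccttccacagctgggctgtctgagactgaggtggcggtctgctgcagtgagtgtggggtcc

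The Lep window held the core once, as TTGCGCAA from 55 to 48 bases before the start, which reads the same on both strands. The Plin1 window held it at 2 places, and the Adipoq window held none. Of the 9 genes with a window in the table (all but Fabp4), 4 held the core in at least 1 window (Lep, Plin1, Cidec and Pparg), against 12.2% of 27025 genes. Counted by window, 4 of 13 held it, against 10.8% of 32851 windows of this length. The nuclear receptor half-site AGGTCA was in 1 of the 9 genes (Pparg) and in 18.1% of all genes. The direct repeat AGGTCANAGGTCA, bound by PPARγ with RXR, was in none of the 9 and in 0.0481% of all genes. The looser AGGNCANAGGNCA, which includes the former, was also in none of the 9, against 0.451%. The letters TATAAA were in 1 of the 9 (Pparg) and in 15.7% of all genes. These are matches of letters in short windows and say nothing of binding.

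Libraries held 23377571 to 34159435 counts. Foxp3, the gene that marks Tregs, had 14 to 20 counts in control, 10 to 16 in ΔETreg, 13 to 23 in ΔLTreg and 9 to 19 in ΔTreg libraries, so that the groups overlapped and its RNA did not show the depletion at this depth. All 10 genes were detected in every mouse, at 8 counts (Lep) or more, and all 10 were among the 18375 genes that passed the filter on low counts. Levels are given as CPM, the read count of a gene relative to its library's total, scaled between libraries by TMM. Divided by the length of the longest coding transcript, Fabp4 was the most abundant at 357 CPM per kb over all mice. Cfd (25.6) and Lipe (23.2) followed, then Pparg (5.16), Adipoq (5.12), Cidec (3.08), Plin1 (2.24), Retn (2.21) and Pck1 (1.19), with Lep lowest at 0.651 CPM per kb. Ucp1, which marks brown adipocytes, had at most 3 counts in any library. In whole skin, fewer adipocytes and less of each RNA per adipocyte cannot be told apart.

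Adipocyte gene levels differed widely between mice of the same group for 7 of the 10 genes. Adipoq, for example, spanned 2.03-fold within the controls, 5.75-fold in ΔETreg, 3.3-fold in ΔLTreg and 2.06-fold in ΔTreg mice. Ranges over all 11 mice, given next, also hold differences between groups and ages. From the lowest to the highest of all 11 mice, Lep spanned 18.7-fold, Adipoq 12.4-fold, Retn 11.7-fold, Cfd 10.9-fold, Pck1 9.48-fold, Plin1 7.53-fold and Cidec 7.4-fold. Fabp4 and Pparg spanned 1.58-fold and Lipe 1.38-fold. The same division was seen in the biological coefficient of variation, edgeR's estimate of the spread between mice of 1 group. It was 43.6% to 66.3% for the 7 genes, at or above the 99th percentile of all genes tested, and 10% to 11% for Fabp4, Lipe and Pparg, close to the median of 8.8% over all genes. This division into 7 variable and 3 steady genes was made after the values were seen.

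**Figure D1:**
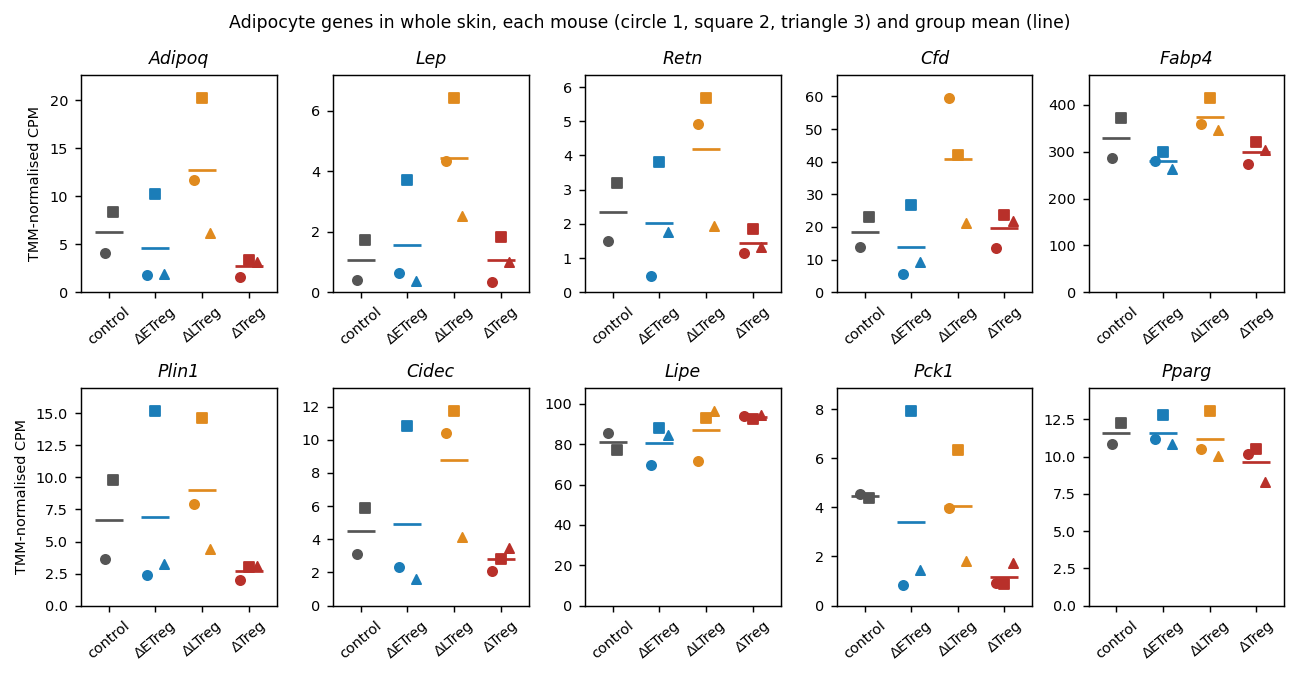
TMM-normalised CPM of the 10 adipocyte genes (vertical axes from 0) in each mouse of the control, ΔETreg, ΔLTreg and ΔTreg groups, with the group mean as a line. ΔETreg mouse 2 (square) lies far above its group for most genes, and the 3 ΔTreg mice lie below the 3 ΔLTreg mice for 7 of the 10 genes.

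The 7 variable genes moved together from mouse to mouse. ΔETreg mouse 2 was the highest of its group for all 7, and ΔLTreg mouse 3 was the lowest of its group for all 7. ΔLTreg mouse 2 was the highest of its group for 6, ΔTreg mouse 1 the lowest for 6, and control mouse 2 the higher control for 6. Averaged over the 7 genes, ΔETreg mouse 2 stood at 1.2 log2 units above the mean of all mice, and the other ΔETreg mice at -1.36 and -0.99. The ΔLTreg mice stood at 1.2, 1.6 and 0.09, and the ΔTreg mice at -1.18, -0.38 and -0.41. The controls stood at -0.38 and 0.61.

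Skeletal muscle genes also varied between biopsies and between groups. The sum of 9 muscle marker genes was 1661 and 1726 CPM in the controls and 1600, 1347 and 2173 CPM in ΔETreg mice 1 to 3. It was 4915, 2044 and 7416 CPM in ΔLTreg mice 1 to 3 and 2708, 1936 and 3710 CPM in ΔTreg mice 1 to 3. In the ΔETreg and ΔLTreg groups the mouse with the lowest muscle sum had the highest mean of the 7 adipocyte genes, and so did ΔTreg mouse 2, at -0.38 against -0.41 in the next mouse. Other pairs ran the opposite way: control mouse 2, ΔETreg mouse 3 and ΔTreg mouse 3 each had more muscle RNA and a higher adipocyte mean than mouse 1 of the same group. With the log2 muscle sum as a covariate, an alternative chosen after these sums were seen, some of the counts and values below moved, and these are given beside them. The muscle sum was not independent of group, since every ΔLTreg and ΔTreg mouse was above both controls. Values adjusted for it therefore cannot be fully separated from group and age.

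At the same age of 13 days, skin depleted of Tregs from day 6 (ΔTreg) was compared with skin depleted from day 10 only (ΔLTreg), and 9 of the 10 adipocyte genes had lower mean levels in ΔTreg skin. Adipoq, encoding the adipokine adiponectin, fell 4.55-fold, and it was the 1 gene of the 10 past an adjusted p of 0.05, where 16.8% of all genes tested were called and 6.11% were called lower. The median log2 fold change of the 10 was -1.57, against -0.00436 over all genes. The groups did not overlap for 7 of the 10, each of them lower in ΔTreg skin (Adipoq, Lep, Retn, Fabp4, Plin1, Cidec and Pck1), against 16.7% of all genes that were lower without overlap. The same 7 had an unadjusted p under 0.05, against 30.5% of all genes. The count of called genes depended heavily on the fit: it was 7 with DESeq2, 4 when edgeR was fitted to these 2 groups alone, 8 without the filter on low counts and 5 with the muscle covariate. Over all genes, DESeq2 called 2631 of 19882 and edgeR on the 2 groups called 2594 of 17688. The shares over all genes without the filter and with the muscle covariate are not given here.

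Among the adipokines, Adipoq was at 11.7, 20.3 and 6.14 CPM in ΔLTreg mice and at 1.63, 3.36 and 3.18 CPM in ΔTreg mice. Every ΔTreg mouse was below every ΔLTreg mouse, and the lowest ΔLTreg mouse was also the one with the most muscle RNA. The log2 fold change was -2.19 (SE 0.658, 95% interval -3.64 to -0.74, adjusted p = 0.0432 in edgeR's quasi-likelihood fit, Benjamini-Hochberg adjusted). The call rested on single mice: it was lost when ΔLTreg mouse 1 or 2 or any 1 of the ΔTreg mice was left out, and the adjusted p over the 11 fits that left out a mouse ran from 0.00814 to 0.144, with log2 fold changes of -2.51 to -1.69. Over the 8 other alternatives it remained called, at -2.65 to -2.18, the former with the muscle covariate.

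Lep, the satiety hormone leptin, was at 4.35, 6.43 and 2.54 CPM in ΔLTreg mice and at 0.343, 1.84 and 0.989 CPM in ΔTreg mice. The groups did not overlap, with a log2 fold change of -1.99 (95% interval -3.63 to -0.35) and an adjusted p of 0.0954 in edgeR's quasi-likelihood fit, Benjamini-Hochberg adjusted. Retn, encoding resistin, was at 4.92, 5.69 and 1.94 CPM against 1.16, 1.84 and 1.33 CPM. Its lowest ΔLTreg mouse and its highest ΔTreg mouse were close, at 1.94 and 1.84 CPM, and the log2 fold change was -1.51 (-2.79 to -0.22). Cfd, encoding complement factor D or adipsin, was at 59.6, 42.0 and 21.1 CPM against 13.5, 23.7 and 21.9 CPM. These groups overlapped through ΔLTreg mouse 3, with a log2 fold change of -1.05 and an interval of -2.17 to 0.07 that included 0.

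Plin1 and Cidec of the lipid droplet and the enzyme gene Pck1 shared with Adipoq, Lep and Retn the order of the ΔLTreg mice. All were highest in ΔLTreg mouse 2 and lowest in ΔLTreg mouse 3. The order of the ΔTreg mice was not shared. Plin1 was at 7.90, 14.6 and 4.45 CPM in ΔLTreg mice and at 2.02, 3.03 and 3.09 CPM in ΔTreg mice (log2 fold change -1.70, 95% interval -3.22 to -0.18). Cidec was at 10.4, 11.7 and 4.10 CPM against 2.06, 2.79 and 3.49 CPM (-1.63, -3.02 to -0.25). Neither pair of groups overlapped, and in both ΔLTreg mouse 3 was nearest to the ΔTreg mice. Pck1, the enzyme of glyceroneogenesis, was at 3.96, 6.35 and 1.82 CPM against 0.900, 0.861 and 1.73 CPM (-1.76, -3.40 to -0.12). Its groups were separated by the gap between 1.82 and 1.73 CPM alone. The adjusted p of these 3 genes ran from 0.105 to 0.137 in edgeR's quasi-likelihood fit, Benjamini-Hochberg adjusted.

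Fabp4, the fatty acid binding protein of adipocytes, differed little in size but with narrow error, at 359, 415 and 347 CPM in ΔLTreg mice and 273, 321 and 303 CPM in ΔTreg mice. The groups did not overlap, and the log2 fold change was -0.32 (95% interval -0.55 to -0.09, adjusted p = 0.062 in edgeR's quasi-likelihood fit, Benjamini-Hochberg adjusted). Lipe was at 71.9, 92.9 and 96.4 CPM against 93.9, 92.3 and 94.5 CPM. It was the 1 gene with a higher mean in ΔTreg skin, with overlapping groups and a log2 fold change of 0.10 (-0.14 to 0.34). Pparg was at 10.5, 13.1 and 10.1 CPM against 10.2, 10.5 and 8.29 CPM, again with overlap, and at -0.21 (-0.49 to 0.07). The fitted values of the 7 variable genes ran from -2.19 to -1.05. These 7 were set apart by their range over all mice, which includes both groups. No difference in response between them and Lipe or Pparg can be read from this. With the muscle covariate Lep (-2.59), Plin1 (-2.16), Fabp4 (-0.41) and Pparg were called besides Adipoq, and Pparg moved to -0.37 (SE 0.0981, adjusted p = 0.0335 in edgeR's quasi-likelihood fit). The exons of Lipe overlap those of an antisense gene, 4732471J01Rik, with 450 counts over all mice, and Gm44079 lies antisense within Pparg without shared exons, with 6. Whether counting used strand is not given in the sources used here.

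**Figure D2:**
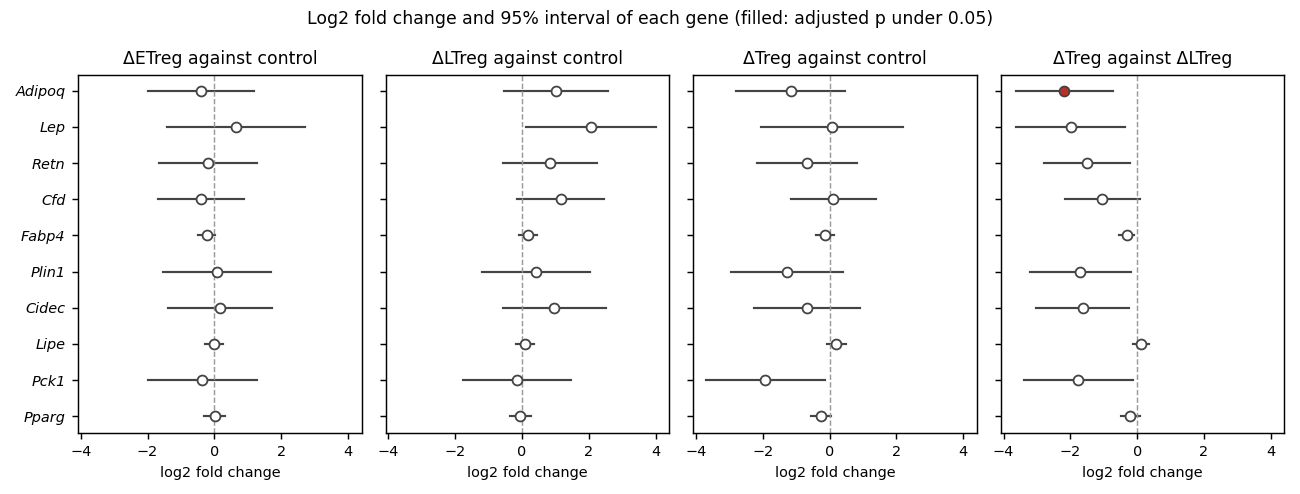
Log2 fold change (horizontal axes) with its 95% interval for the 10 adipocyte genes in 4 comparisons, filled where the adjusted p was under 0.05. Adipoq in ΔTreg against ΔLTreg skin, at -2.19, is the filled point, and the intervals of Fabp4, Lipe and Pparg are far narrower than those of the other 7 genes.

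Against control skin none of the 10 genes passed the threshold in any depleted group in edgeR's quasi-likelihood fit, Benjamini-Hochberg adjusted, and the 3 comparisons shared the same 2 control mice. As the age of these controls is not given, depletion and age cannot be told apart in any of the 3 comparisons. In ΔETreg skin the lowest adjusted p was 1, 0 of the 10 had an unadjusted p under 0.05 and 0 had groups without overlap. Of all genes tested, 0.00544% were called, 4.75% had such a p and 19.7% did not overlap. DESeq2 called 0 as well. The intervals were wide: Adipoq was at 4.13 and 8.41 CPM in controls and at 1.78, 10.2 and 1.89 CPM in ΔETreg mice, with a log2 fold change of -0.40 (95% interval -1.98 to 1.17). Lep was at 0.420 and 1.71 CPM against 0.627, 3.71 and 0.386 CPM (0.64, -1.42 to 2.70). Both show 1 ΔETreg mouse above and 2 near or below the controls. Fabp4 was at 286 and 372 CPM against 279, 299 and 263 CPM (-0.23, -0.49 to 0.03). Pparg was at 10.9 and 12.3 CPM against 11.2, 12.8 and 10.8 CPM, and at 0.01 (-0.30 to 0.32) it was bounded far more closely than Adipoq.

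In ΔLTreg skin 8 of the 10 means were above control, with a median log2 fold change of 0.63 (0.00396 over all genes), and 0 of the 10 were called where 4.55% of all genes were. Lep showed the widest difference, at 2.07 (95% interval 0.12 to 4.02, adjusted p = 0.217 in edgeR's quasi-likelihood fit, Benjamini-Hochberg adjusted), and every ΔLTreg mouse was above both controls. It was the 1 gene of the 10 without overlap and with an unadjusted p under 0.05, against 32.2% and 20.2% of all genes, and DESeq2 called it. Cfd was at 1.15 (-0.14 to 2.45), Adipoq at 1.02 (-0.54 to 2.57) and Cidec at 0.97 (-0.57 to 2.5). With the muscle covariate these differences were larger, at 3.25 for Lep, 1.74 for Cfd, 2.12 for Adipoq and 1.9 for Cidec, and 0 of the 10 were called. The muscle sum itself was higher in every ΔLTreg mouse than in both controls, so these adjusted values cannot be separated from group.

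In ΔTreg skin 7 of the 10 means were below control, with a median log2 fold change of -0.46 (-0.00585 over all genes). Of the 10, 0 were called, where 21.5% of all genes were. Pck1 was at 4.55 and 4.38 CPM in controls and at 0.900, 0.861 and 1.73 CPM in ΔTreg mice. All 3 were below both controls, and the log2 fold change was -1.92 (95% interval -3.69 to -0.15, adjusted p = 0.117 in edgeR's quasi-likelihood fit, Benjamini-Hochberg adjusted). DESeq2 called 3 genes lower (Adipoq, Plin1 and Pck1), and leaving out ΔETreg mouse 2, which is in neither group but adds to the shared estimate of spread, let Pck1 pass. Plin1 was at -1.28 (-2.96 to 0.40) and Adipoq at -1.17 (-2.79 to 0.45). The groups did not overlap for 5 genes, 4 lower (Adipoq, Plin1, Pck1 and Pparg) and Lipe higher, a share near that of all genes (52.5%, with 25.8% lower and 26.8% higher). With the muscle covariate Pck1 moved to -1.29, Plin1 to -0.64 and Adipoq to -0.53. Without it, Lep and Cfd were at 0.08 (-2.04 to 2.20) and 0.11 (-1.17 to 1.38).

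The 2 depleted groups of different age were compared as well. Fabp4 was at 279, 299 and 263 CPM in ΔETreg mice at day 9 and at 359, 415 and 347 CPM in ΔLTreg mice at day 13. It was the 1 gene of the 10 called, where 6.38% of all genes were called and 3.12% were called lower, and its groups were the only ones of the 10 without overlap, against 26.3% of all genes. Fabp4 was 1.33-fold lower in ΔETreg skin, at a log2 fold change of -0.41 (SE 0.106, 95% interval -0.65 to -0.18, adjusted p = 0.0436 in edgeR's quasi-likelihood fit, Benjamini-Hochberg adjusted). This call was lost in the fit to these 2 groups alone, with library size alone, with sex or the muscle sum as a covariate, and in 8 of 11 fits that left out a mouse, where the adjusted p ran from 0.0222 to 0.134. The difference itself was kept over the 8 other alternatives, at -0.598 (muscle covariate) to -0.393, and in the 4 of them that lost the call the adjusted p was 0.0522 to 0.0607 in edgeR's quasi-likelihood fit. Of the 10 means, 9 were lower in ΔETreg skin, with a median of -0.61 (-0.00533 over all genes), and the groups overlapped for the other 9 genes, in the case of the 7 variable genes through ΔETreg mouse 2 alone. Without that mouse Adipoq and Cfd were called and Fabp4 was not.

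Between ΔTreg and ΔETreg skin 0 of the 10 genes were called (23.1% of all genes), with a median of -0.52 (-0.00192 over all genes). Pck1 was at -1.56 (95% interval -3.21 to 0.10) and Plin1 at -1.35 (-2.88 to 0.18), and with the muscle covariate they moved to -0.81 and -0.57. The groups did not overlap for Lipe, which was higher, and Pparg, which was lower, against 45.1% of all genes. Both differences were small, at 0.21 (-0.03 to 0.46) and -0.27 (-0.55 to 0.01).

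Other genes of fat storage were read in the comparison of ΔTreg with ΔLTreg skin. Rises and falls in it are relative to ΔLTreg skin, not to control. Of all genes tested there, 16.8% were called, 6.11% lower and 10.7% higher. The counts of called genes in the lists of this comparison are to be read beside these shares. Of 16 genes of fatty acid and triglyceride synthesis, 7 fell and 0 rose, with a median log2 fold change of -0.28. They were Thrsp (-1.21), the elongase Elovl6 (-1.03), glycerol-3-phosphate dehydrogenase Gpd1 (-0.95), the acyltransferase Agpat2 (-0.79), Acss2 (-0.68), the desaturase Scd1 (-0.50) and fatty acid synthase Fasn (-0.41). Many of them also act in sebaceous glands, and 5 of 10 sebocyte markers fell in the same comparison (median -0.37), so the cell of origin was not tested. Of 15 other genes of the lipid droplet coat and lipolysis, 3 fell, namely the glycerol channel Aqp7 (-1.41), Cidea (-0.63) and Fitm2 (-0.20), and 0 rose, with a median of 0.01. Of 10 genes of fatty acid and glucose uptake, Lrp1 rose (0.57) with a list median of 0.07, and the fatty acid translocase Cd36 was at 0.07 (SE 0.0788). Against control, Lrp1 was at 0.05 in ΔTreg and at -0.52 in ΔLTreg skin.

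Of 13 other genes typical of adipocytes (median -0.33), Adig (-0.94), Car3 (-0.91) and Cidea fell, while Hsd11b1, which makes active glucocorticoid, rose (3.61, SE 0.198), as did Rarres2, encoding chemerin (2.05, SE 0.191). Fibroblasts also make Hsd11b1 and Rarres2. Of 13 adipocyte transcription factors (median 0.00913), the early factor Cebpd rose (0.93), Klf15 (-0.46) and Ppara (-0.60) fell, and Cebpa (-0.06, SE 0.0668), Ppard (0.06, SE 0.0533) and the PPAR partner Rxra (0.07, SE 0.0461) did not pass the test. Among other PPAR target genes, Cpt1a, the gate of fatty acid entry into mitochondria, rose (0.36) and Fabp7 fell (-0.99, SE 0.23, adjusted p = 0.0128 in edgeR's quasi-likelihood fit, Benjamini-Hochberg adjusted). Of 7 brown adipocyte genes tested (median -0.19), Cidea and Dio2 (-0.66) fell. Among 5 adipokine receptor genes (median 0.07) the leptin receptor Lepr rose (0.89, SE 0.104), and Adipor1 was at 0.04 (SE 0.0432). Lepr averaged 23.1 CPM in ΔTreg, 12.5 in ΔLTreg and 21.2 in control mice, so it was ΔLTreg skin that differed from control. Of 12 genes of adipocyte precursors and dermal fibroblasts (median -0.05), the preadipocyte inhibitor Dlk1 (-2.49) and Dpp4 (-0.22) fell, and Pdgfra (1.02) and Ly6a (1.38) rose. Pdgfra averaged 54.5 CPM in ΔTreg, 26.9 in ΔLTreg and 63.6 in control mice, so ΔTreg skin was not above control.

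**Figure D3:**
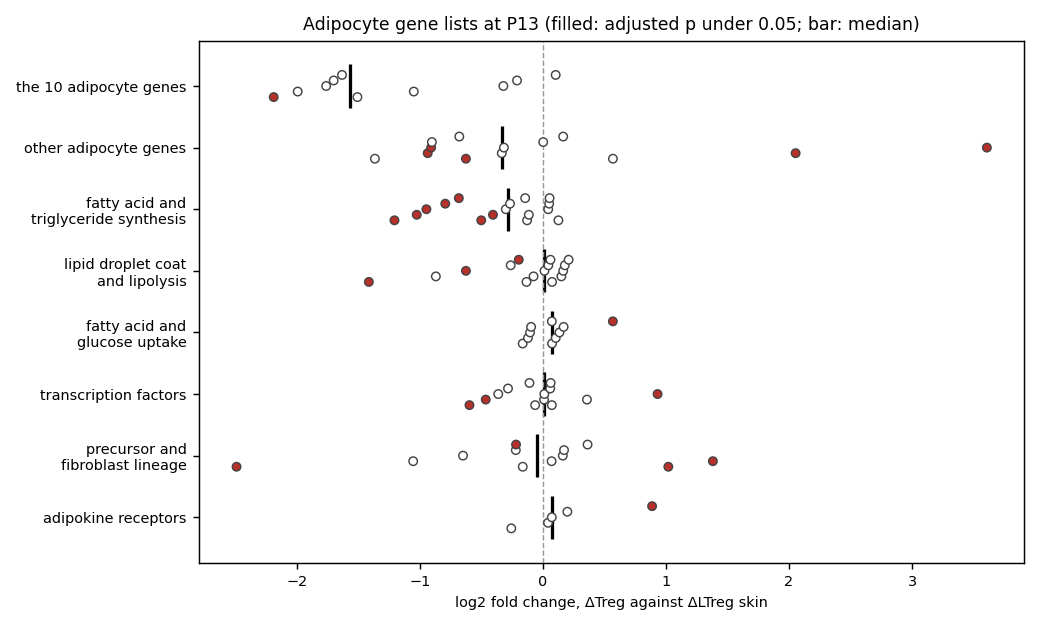
Log2 fold change of each gene in ΔTreg against ΔLTreg skin (horizontal axis), by list, filled where the adjusted p was under 0.05, with the median of each list as a bar. The median of the 10 adipocyte genes is -1.57, and those of the other lists lie between -0.334 and 0.0734.

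Against control skin the genes with the smallest p of each list were read. In ΔLTreg skin they included Ppargc1a (0.61) and Cebpb (0.28), which rose, as did Agpat2 (0.55), while Lepr (-0.77), Irs1 (-0.39), Cd36 (-0.43), Pdgfra (-1.24), Pdgfrb (-0.49) and Dio2 (-1.05) fell. In ΔTreg skin Hsd11b1 (3.38), Rarres2 (2.10), Cebpd (1.44), Ly6a (1.75), Adrb3 (1.07), Ppargc1a (0.63) and Pnpla2, encoding adipose triglyceride lipase (0.38), rose. Elovl6 (-0.64), Acss2 (-0.48), Cd36 (-0.36), Irs1 (-0.51), Cdh13 (-0.47), Dio2 (-1.70), Dlk1 (-2.39) and Fabp7 (-0.91) fell. In ΔETreg skin 0 genes of these lists were called, where 0.00544% of all genes were.

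Markers of other cells moved with the ΔTreg group. In this group, 10.7% of all genes were called higher than in ΔLTreg skin and 6.11% lower. All 8 T cell markers rose against ΔLTreg skin (median 2.62), and their summed level was 57.2 to 71.4 CPM in ΔTreg mice and 13 to 19.1 CPM in all other mice. Of 8 macrophage markers 6 rose (median 1.52), with sums of 364 to 492 CPM against 87.6 to 206 CPM in ΔLTreg mice. Of 8 endothelial markers 5 fell and 2 rose (median -0.22). Of 9 muscle markers 2 fell (median -0.78), and of 7 keratinocyte markers 1 fell (median 0.05). The part of these cells in the adipocyte values was not tested.

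The genes whose profile over the 11 mice was most like the mean of the 10 adipocyte genes were Sncg, with a root mean square difference of 0.274 log2 units, then G0s2 (0.326), Nnat (0.343), Panx3 (0.413), Ffar2 (0.444), Bche (0.445), Angptl1 (0.449), Esr1 (0.459), Tmem179 (0.46) and Lgi3 (0.476). G0s2 encodes an inhibitor of adipose triglyceride lipase. Sncg averaged 3.57 ± 1.43 CPM (SD, n = 2) in controls, 3.19 ± 1.13 in ΔETreg, 5.32 ± 1.8 in ΔLTreg and 2.81 ± 0.65 in ΔTreg mice (n = 3 each). Taken singly, Sncg was nearest to Adipoq, Lep, Retn and Cidec, G0s2 to Plin1, the acute-phase gene Hp to Cfd (0.422) and Slc7a10 to Pck1 (0.581). The steady genes had other neighbours: Hddc2 was nearest to Fabp4 (0.0805), the epidermal enzyme gene Padi1 to Lipe (0.047) and the elongase gene Elovl4 to Pparg (0.0432). Elovl4 averaged 603 ± 51 CPM in controls (SD, n = 2) and 596 ± 33.3, 596 ± 88.5 and 489 ± 59.6 CPM in ΔETreg, ΔLTreg and ΔTreg mice (n = 3 each). These likenesses are descriptions over 11 libraries that share tissue and depth.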

How the data were processed

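Bulk RNA sequencing of whole skin from 11 mice was used. The authors trimmed reads with Trimmomatic 0.36, aligned them to GRCm38 with STAR 2.5.2b and counted them per gene with featureCounts (Subread 1.5.2), per the submitters' processing notes, and deposited the raw counts. The annotation release and strand setting are not given in the sources used here. Genes were filtered with filterByExpr and scaled by TMM, and 1 model with a mean per group was fitted to all libraries with edgeR 4.0.16 in R 4.3.3 (quasi-likelihood test, Benjamini-Hochberg adjustment over 18375 genes, threshold 0.05). Intervals are 95% confidence intervals of the difference between group means on the log2 scale, and rest on the spread between mice. Their SE was derived from the log2 fold change and the quasi-likelihood F statistic. DESeq2 1.42.0, other scalings and filters, sex as a covariate and leaving out each mouse were alternatives. As sex was not recorded, it was inferred from RNA, by whether the CPM of Xist exceeded that of Ddx3y. How the inferred sexes fell among the groups is not given here. The muscle covariate was added after the data were examined. Log2 CPM used a prior count of 2. Lengths came from GENCODE M21. The fit was tested on simulated data. The 10 genes and all lists were chosen with earlier results of these data known. Genes named from lists were the 2 with the smallest p in ΔTreg and in ΔLTreg against control skin. Ppara, Ppard, Rxra and Fabp7 were named besides, and those named in ΔTreg against ΔLTreg skin are the called genes and, for Cd36, Cebpa and Adipor1, genes picked after their values were seen. Some genes that this rule selects are not reported here. Neighbours by profile needed a mean of 50 counts.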

Additional observations from a re-analysis of the deposited data

Results flagged for a closer look

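Adipoq differed between the ΔTreg and ΔLTreg groups by the test of that difference (log2 fold change -2.19, adjusted p = 0.0432 in edgeR's quasi-likelihood fit, Benjamini-Hochberg adjusted), lower in 3 of 3 ΔTreg mice. Fabp4 differed between the ΔETreg and ΔLTreg groups (-0.414, adjusted p = 0.0436 by the same test in edgeR), lower in 3 of 3 ΔETreg mice, which were also younger. Both p-values lie just under the threshold of 0.05.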

How the results depend on the processing

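No paired analysis was possible because the labels carry no replicate numbers shared between groups. The number of the 10 genes called depended on the fit more than on the scaling. In ΔTreg against ΔLTreg skin it was 1 as reported, 7 with DESeq2, 4 with edgeR on the 2 groups, 8 without a filter, 5 with the muscle covariate, and 0 to 5 with 1 mouse left out: 0 without ΔLTreg mouse 1 or 2 or any ΔTreg mouse, 5 without ΔETreg mouse 2. In ΔLTreg against control skin it was 0 as reported, 1 with DESeq2 and 4 without a filter. In ΔTreg against control skin it was 0, then 3 with DESeq2, 2 with edgeR on the 2 groups, 3 without a filter and 0 to 1 with a mouse left out. In ΔTreg against ΔETreg skin it was 0, then 1 with DESeq2 and 3 without a filter. In ΔETreg against ΔLTreg skin it was 1, then 0 with edgeR on the 2 groups, library size alone, sex or the muscle covariate, 6 without a filter and 0 to 2 with a mouse left out. In ΔETreg against control skin it was 0 in every fit run. The cause of these differences was not tested. Over all genes, DESeq2 called 2631 of 19882 in ΔTreg against ΔLTreg and 639 of 17434 in ΔLTreg against control. It called 3521 of 19580 in ΔTreg against control and 4424 of 20398 in ΔTreg against ΔETreg. EdgeR on the 2 groups called 2594 of 17688 in ΔTreg against ΔLTreg and 3986 of 17794 in ΔTreg against control. It called 540 of 17224 in ΔETreg against ΔLTreg. Shares for the other fits are not given here. Some fold changes reversed. In ΔETreg against control skin Plin1 became -0.0143 with sex and -0.067 with the muscle covariate, and Lipe 0.000778 on the 2 groups, 0.0246 with library size alone and 0.00239 with at least 10 counts in every library. With the muscle covariate, chosen after the data were examined, Pck1 (0.864) and Pparg (0.268) reversed in ΔLTreg against control skin, Adipoq (0.00459), Lep (0.149) and Retn (0.0314) in ΔTreg against ΔETreg skin and Pparg (-0.265) in ΔETreg against ΔLTreg skin; it also called Pparg lower in ΔTreg than in ΔLTreg skin. With 1 mouse left out, the log2 fold changes that reversed ran as follows. In ΔETreg against control skin they were Adipoq (-1.77 to 0.187), Lep (-1.01 to 1.94), Retn (-1.1 to 0.435), Cfd (-1.34 to 0.0113), Plin1 (-1.26 to 0.955), Cidec (-1.17 to 0.679), Lipe (-0.0824 to 0.0917), Pck1 (-1.98 to 0.103) and Pparg (-0.0773 to 0.0989). In ΔLTreg against control skin they were Plin1 (-0.137 to 1.3), Pck1 (-0.617 to 0.197) and Pparg (-0.162 to 0.0404). In ΔTreg against control skin they were Lep (-0.632 to 1.38), Cfd (-0.228 to 0.52) and Fabp4 (-0.319 to 0.058). In ΔTreg against ΔLTreg skin they were Lipe (-0.0221 to 0.187). In ΔTreg against ΔETreg skin they were Adipoq (-1.15 to 0.598), Lep (-1.21 to 1.09), Retn (-0.952 to 0.426), Cidec (-1.23 to 0.505) and Pck1 (-2.02 to 0.0604). In ΔETreg against ΔLTreg skin they were Plin1 (-1.68 to 0.179), Pck1 (-1.82 to 0.264) and Pparg (-0.0188 to 0.181). Groups of 2 and 3 mice limit what could be called for genes that vary this much between mice.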
